A study of Mus musculus with 12 samples.

Results

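The genes described here are 36 regulators of chromatin and DNA methylation, chosen by name, and the question was whether the RNA of any of them moves in mouse liver together with diet, surgery or the open chromatin measured in the same livers. They comprise DNA methyltransferases, Tet dioxygenases, histone deacetylases and sirtuins, acetyltransferases, polycomb repressive complex 2, writers and readers of H3K4 and H3K36 methylation, histone demethylases, and ATP-dependent remodellers. An expression value was found for 35 of the 36. The values formed 24910 rows, of 24023 matched genes and of 887 transcripts matched to no gene, and each row is counted as a gene below. Of these rows, 9869 passed the filter on low values and were tested, among them 28 of these regulators. Kmt2a, a histone H3K4 methyltransferase, was matched to no transcript and was not analysed in the RNA.

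All livers came from male C57BL/6J mice, with 2 mice in each of 3 groups. Ctl mice stayed on standard chow for 28 weeks and had no operation. Sham and VSG mice received a high-fat diet, with 60 kcal% of fat, from 8 weeks of age for 14 weeks. They were then operated on and returned to that diet for a further 14 weeks, after 4 days of liquid food. In VSG (vertical sleeve gastrectomy) about 80% of the stomach was removed, whereas in Sham the stomach was only isolated and pressed. Sham against Ctl therefore carries the diet and the operation together, since no unoperated mice on the high-fat diet were analysed here. RNA-seq and FAIRE-seq, which recovers DNA with few nucleosomes, were made from the same livers.

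DNA methyltransferases place a methyl group on cytosine in CpG dinucleotides and Tet enzymes oxidise it, which starts its removal. Acetylation of histone tails by acetyltransferases generally accompanies open, active chromatin, and deacetylases remove it. Polycomb repressive complex 2 methylates H3K27 at silent genes, and SWI/SNF and NuRD complexes move or eject nucleosomes. Most of these proteins are enzymes that work inside multi-subunit complexes, in nearly every cell type of the liver, and several depend on metabolites such as NAD+, acetyl-CoA, S-adenosylmethionine and 2-oxoglutarate.

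The promoters of most of these genes are rich in CpG. RefSeq promoter sequences (GRCm38.p6, 250 bases before to 50 after the start, first entry of each gene) were at hand for 30 of the 36, and each was found exactly once in mm9, the build of the peak lists. Kdm5a, Cxxc1, Kdm6b, Hdac1, Mbd2 and Hdac3 had no entry. The median promoter of the 30 held 25 CpGs in 300 bases against 7 over all 27025 promoters of the table, and the ratio of observed to expected CpG was at least 0.6 in 27 of 30 (90.0%) against 36.5% of all promoters. The 150 bases before the start are shown for 5 of them, with every CpG in capitals. Kdm1a, Hdac5 and Kat2b are shown because their RNA was lower in both Sham mice than in the other 4, Tet2 because it had the most CpGs and its RNA was higher in both Sham mice, and Tet1 because no open region was found at its start in any group.
Kdm1a (mm9 chr4:136158639-136158788, minus strand, 17 CpGs): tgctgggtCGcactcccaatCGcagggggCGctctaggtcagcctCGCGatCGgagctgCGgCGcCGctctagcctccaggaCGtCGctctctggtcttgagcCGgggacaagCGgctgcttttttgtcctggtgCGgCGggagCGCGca
Hdac5 (mm9 chr11:102091487-102091636, minus strand, 8 CpGs): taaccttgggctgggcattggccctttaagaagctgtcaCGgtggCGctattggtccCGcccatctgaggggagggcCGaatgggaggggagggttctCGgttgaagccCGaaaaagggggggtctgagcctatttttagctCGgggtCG
Kat2b (mm9 chr17:53706146-53706295, plus strand, 4 CpGs): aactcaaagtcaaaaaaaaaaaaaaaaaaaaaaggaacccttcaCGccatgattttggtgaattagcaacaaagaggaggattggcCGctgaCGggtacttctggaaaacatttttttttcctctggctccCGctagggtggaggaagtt
Tet2 (mm9 chr3:133207355-133207504, minus strand, 30 CpGs): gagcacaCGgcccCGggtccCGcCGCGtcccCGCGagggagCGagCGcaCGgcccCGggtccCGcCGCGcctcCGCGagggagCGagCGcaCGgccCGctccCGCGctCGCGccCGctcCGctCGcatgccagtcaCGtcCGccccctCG
Tet1 (mm9 chr10:62350073-62350222, minus strand, 8 CpGs): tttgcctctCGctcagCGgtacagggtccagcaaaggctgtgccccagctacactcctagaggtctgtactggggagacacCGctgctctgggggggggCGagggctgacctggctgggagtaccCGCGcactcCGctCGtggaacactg

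Of the motifs searched on both strands of the 300 bases, the GC box GGGCGG was in 19 of 30 (63.3%) against 35.9% of all promoters, and the CCAAT box in 12 of 30 (40.0%) against 37.9%. The CCAAT box was in the windows of Kdm1a, Hdac5 and Kat2b, and of 9 other genes. TATAAA and TGACGTCA were in 0 of 30, against 14.2% and 1.88% of all promoters. GGCGGGAA, the letters of an E2F site, were found in Uhrf1 alone, against 2.24% of all promoters. CCGGAAGT, an ETS site, was in Sirt3 and Sirt6, 2 of 30 (6.67%) against 4.00%. These are matches of letters and say nothing of binding. GGGCGG itself holds a CpG, and no set of promoters alike in CpG was compared. The part of CpG content in its share was not tested.

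Levels are given in FPKM, in which fragments are scaled to the length of the transcript and to the size of the library, summed over the transcripts of a gene, for mouse 1 and mouse 2 of each group. Changes are differences on the log2(FPKM + 1) scale from limma, which understate the change of genes with low FPKM, and a call means an adjusted p under 0.1 over all 9869 genes. With 2 mice a group the precision was limited, and the median 95% interval of these 28 genes reached 0.76 either side on the log2 scale, a 1.69-fold change. The Ctl mice were more alike than the others, with 16.3% of genes over 2-fold apart between them, against 30.7% for the Sham mice and 24.7% for the VSG mice, and Sham mouse 1 lay farthest out on the first principal component and Sham mouse 2 on the second. Relative depth, read from the steps between low values, ran from 0.674 in Sham mouse 1 to 1.56 in VSG mouse 1 with Ctl mouse 1 as the reference.

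None of the 28 was called in any comparison, and their changes were of both signs in each. The summed FPKM of the 35 genes with a value was 188.7 and 196.7 in Ctl, 185.3 and 179.6 in Sham, and 204.1 and 217.3 in VSG. Sirt3 alone made up 55.6 and 50.7 of it in Ctl, 54.3 and 35.8 in Sham, and 61.8 and 66.8 in VSG. Without Sirt3 the sums of all groups overlapped. The median log2 change of the 28 was -0.12 in Sham against Ctl, where that of all genes tested was 0.04, and 0.06 in VSG against Sham, where it was 0.08. In VSG against Ctl it was 0.10 beside 0.13 for all genes. By sign alone, 12 of the 28 were higher and 16 lower in Sham against Ctl, and 16 were higher and 12 lower in VSG against Sham. With size factors these counts were 8 and 20, and 13 and 15, and with quantile normalization 8 and 20, and 14 and 14. Over all genes tested, Sham against Ctl had 5212 higher and 4651 lower, 4782 and 5082 with size factors, and 5021 and 4843 with quantile normalization. VSG against Sham had 5879 and 3974, then 4923 and 4931, then 4731 and 5122. A rescaling of the mice by size factors moves that last all-gene median from 0.13 to -0.01, so a small rise in VSG against Ctl is relative to it.

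**Figure D1:**
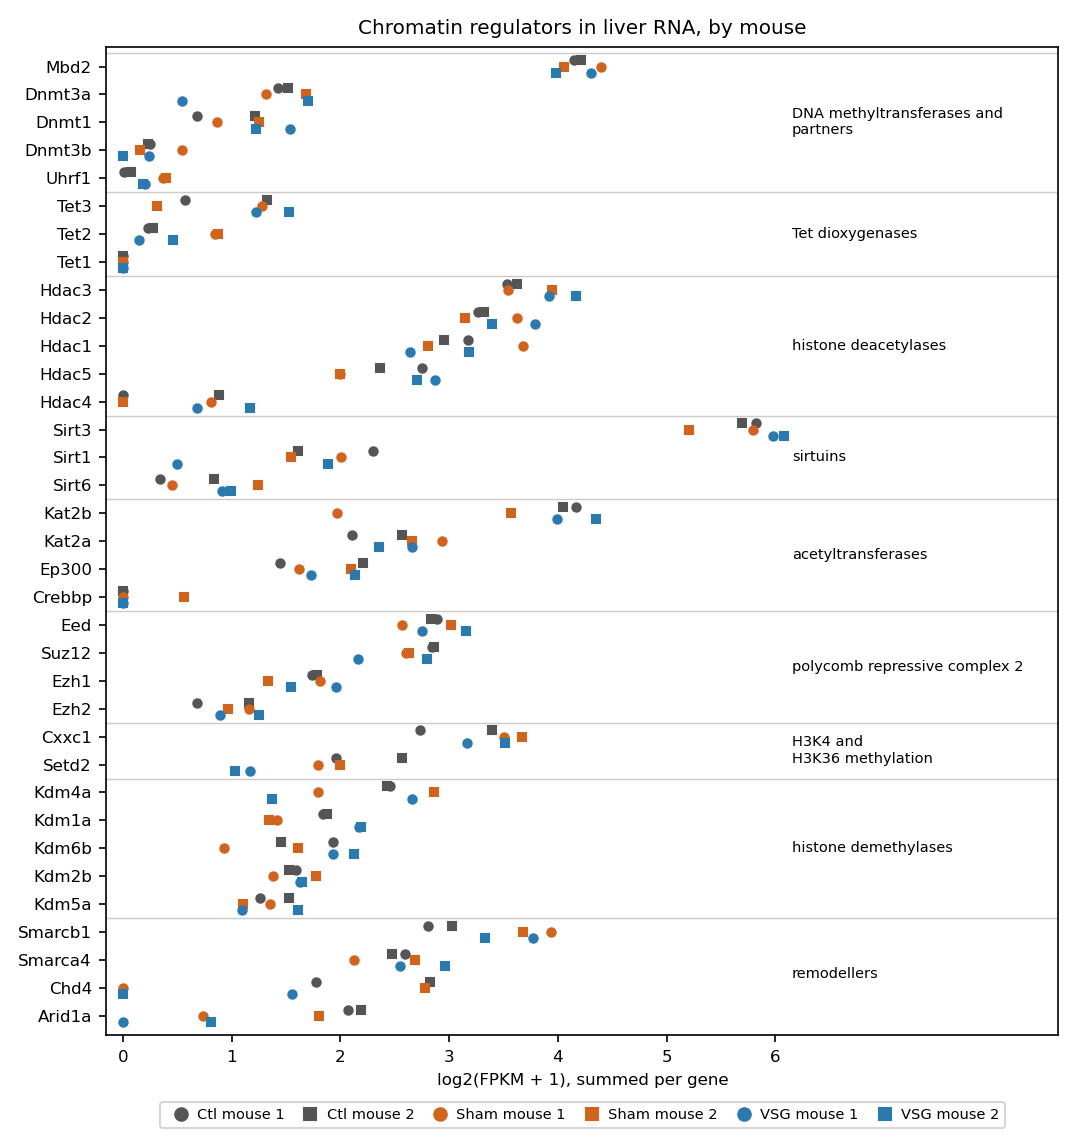
Level of 35 chromatin regulators in each of the 6 livers, as log2(FPKM + 1) along the horizontal axis, grouped by role; circles and squares are mouse 1 and mouse 2 of Ctl (grey), Sham (orange) and VSG (blue). Sirt3 stands highest, Tet1 lies at 0, and Kdm1a shows 3 separate pairs of points.

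For Sham against Ctl, the comparison of diet with sham operation against chow, 0 of 28 were called by limma against 0.284% of all genes, and 1 had an unadjusted p under 0.05, higher in Sham (all genes 6.57% higher and 4.34% lower). The 2 mice of each group did not overlap for 3 that were higher in Sham (25.4% of all genes) and 5 that were lower (20.4%). For VSG against Sham, the effect of the gastrectomy on the same diet, 0 were called (0.0507% of all genes), 2 were higher and 1 lower at p under 0.05 (3.25% and 1.6%), and 5 were higher and 1 lower without overlap (18.5% and 9.78%). For VSG against Ctl, 0 were called (0.284%), 0 were higher and 2 lower at p under 0.05 (7.02% and 2.53%), and 8 were higher and 4 lower without overlap (33.7% and 14.8%). The number of open regions was highest in Sham, and the last comparison asks which genes stand apart in that group. For Sham against the mean of Ctl and VSG, 0 were called (0.142%), 1 was higher and 3 lower at p under 0.05 (3.17% and 4.5%), and 0 were higher and 3 lower without overlap (5.58% and 8.5%). With so few genes, counts of 0 to 3 at p under 0.05 beside such shares show neither an excess nor a deficit that could be tested. These 4 comparisons share mice, so that one gene can stand in several. The share of all genes with both Ctl mice, or both VSG mice, apart from the other 4 was not counted. Such patterns are therefore given below as descriptions only.

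The erasers and writers with the clearest low level in Sham were Kdm1a, Hdac5 and Kat2b. Kdm1a, the demethylase LSD1 that removes methyl groups from H3K4 within CoREST complexes, was at 2.59 and 2.66 FPKM in Ctl, 1.67 and 1.54 in Sham, and 3.49 and 3.57 in VSG. The groups formed 3 separate pairs, with Sham lowest and VSG highest. The log2 change was 0.80 (SE 0.21) in VSG against Sham, with an unadjusted p under 0.05 but an adjusted p of 0.872 by limma, and -0.48 in Sham against Ctl. Against the mean of Ctl and VSG, the change of Sham was -0.64 (limma adjusted p = 0.541). Only 1 transcript of the gene is in the table, so these levels do not depend on how reads were divided among isoforms.

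Hdac5, a class IIa deacetylase that shuttles between cytoplasm and nucleus, was at 5.75 and 4.16 FPKM in Ctl, 2.995 and 3.001 in Sham, and 6.30 and 5.53 in VSG. Both Sham mice were below the other 4. The log2 change was 0.79 (SE 0.24) in VSG against Sham (limma adjusted p = 0.944) and -0.67 in Sham against the mean of the others (adjusted p = 0.576), both with an unadjusted p under 0.05. This gap rested in part on minor isoforms listed at 0 in Sham. The main transcript alone read 2.76 and 4.16, then 2.995 and 3.001, then 3.75 and 4.15, so Ctl and Sham overlapped there, and the log2 change of VSG against Sham came to 0.31.

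Kat2b, the acetyltransferase PCAF, was among the 3 most abundant of these genes, at 17.0 and 15.6 FPKM in Ctl, 2.91 and 10.9 in Sham, and 14.9 and 19.3 in VSG. Both Sham mice were below the other 4, but they were far apart, and mouse 1 held most of the difference. The log2 change was -1.37 (SE 0.48) in Sham against the mean of the others (unadjusted p under 0.05, limma adjusted p = 0.620) and 1.40 in VSG against Sham. Without Sham mouse 1 the change in Sham against the others was -0.57. Without Sham mouse 2 it was -2.17 and was called, with a limma adjusted p of 0.0848, in a range from 0.0848 to 0.986 over the alternatives tried. In the same setting Sham against Ctl was also called (-2.14, limma adjusted p = 0.0980, range 0.0980 to 0.956). Calls over all genes rose as well in that fit, to 150 of 9869 from 14 in Sham against the mean of the others, and to 157 from 28 in Sham against Ctl.

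The summed markers of sinusoidal endothelial and of stellate cells were also lowest in Sham. The summed FPKM of 7 sinusoidal endothelial markers was 45.9 and 21.6 in Ctl, 8.71 and 6.40 in Sham, and 32.8 and 29.7 in VSG, and that of 6 stellate cell markers was 56.5 and 57.6, then 19.7 and 29.5, then 56.2 and 80.1. In Sham against the mean of the others, 4 of the 6 endothelial and 2 of the 4 stellate markers tested were lower at an unadjusted p under 0.05 by limma, and 0 were called. Not every marker followed the sums. Lyve1 was at 1.39 and 0.614 FPKM in Sham and 0.913 and 0.893 in VSG. Des and Pdgfrb, of stellate cells, were above both Ctl mice in Sham mouse 2, at 0.737 and 0.873. Endothelial markers were listed at 0 in every group: Oit3 in both Sham mice and VSG mouse 2, Pecam1 in Sham mouse 1, Stab2 in Ctl mouse 1 and VSG mouse 2, and Kdr in Ctl mouse 1. In whole liver, fewer cells of a type and less RNA per cell cannot be told apart, and the part of these cells in the levels of Kdm1a, Hdac5 and Kat2b was not tested. Hepatocyte markers were abundant in every mouse, at 8361 to 15368 FPKM in sum over 4 genes, mostly Apoa1 and Ttr. All 4 had a negative log2 change in Sham against Ctl (median -1.31) and against the mean of the others (median -1.19), none with an unadjusted p under 0.05 by limma, but Hnf4a was listed at 0 in Sham mouse 1 and was highest of all 6 mice in Sham mouse 2, at 73.3 FPKM. Cps1 was lowest in Sham, at 70.5 and 115.4 FPKM against 147.5 or more in the other 4 mice, and the part of hepatocyte RNA in these levels was not tested either. The sums of Kupffer cell markers (12.9 to 148 FPKM), recruited macrophage markers (20.5 to 110) and cholangiocyte markers (30.7 to 186) did not set Sham apart from both other groups. Single markers did: in both Sham mice Trem2 (2.88 and 3.39 FPKM) and Ccr2 (0.693 and 1.08), of recruited macrophages, and Sox9 (2.05 and 2.75), of cholangiocytes, were above the other 4 mice. In Sham against the mean of the others, all 3 recruited macrophage markers tested (median log2 change 1.07) and both cholangiocyte markers tested (1.11) had a positive change, 1 of each at an unadjusted p under 0.05 by limma and 0 called, and their part in the members' levels was not tested.

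**Figure D2:**
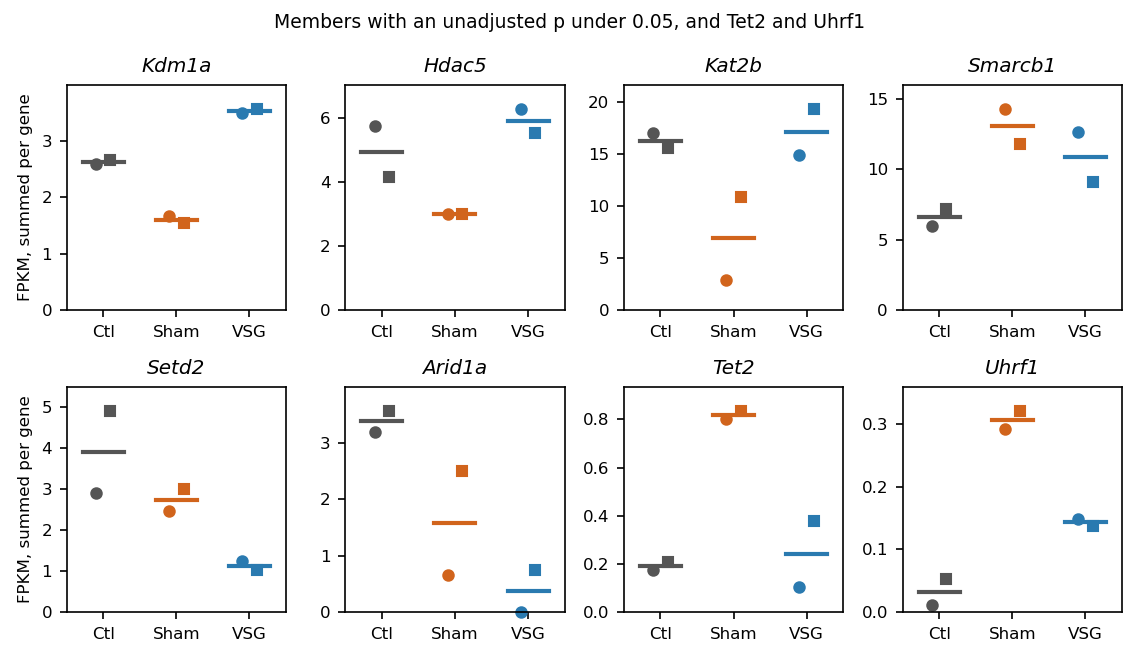
FPKM summed per gene (vertical axes, from 0) in each mouse for the 6 regulators with an unadjusted p under 0.05 and for Tet2 and Uhrf1; circles are mouse 1, squares mouse 2, and lines group means. Sham points lie below the rest for Kdm1a, Hdac5 and Kat2b and above the rest for Tet2 and Uhrf1, VSG points lie below the rest for Setd2, and for Arid1a the VSG mean is lowest while VSG and Sham points overlap.

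Among the remodellers, Smarcb1 was higher and Arid1a lower in high-fat livers, although no change was called. The summed FPKM of 6 recruited macrophage markers was higher there too. It was 20.5 and 20.8 in Ctl, 41.6 and 110 in Sham, and 55.7 and 65.3 in VSG. That of 8 Kupffer cell markers was 18.8 and 12.9, then 38.9 and 36.8, then 37.4 and 148. No marker of either list was called by limma. The part of these cells in the levels of Smarcb1 and Arid1a was not tested. Smarcb1, the SNF5 core subunit of SWI/SNF, was at 6.01 and 7.16 FPKM in Ctl, 14.3 and 11.8 in Sham, and 12.6 and 9.07 in VSG. All 4 mice on the high-fat diet were above both on chow, and Sham and VSG overlapped. The log2 change was 0.89 (SE 0.26) in Sham against Ctl (unadjusted p under 0.05, limma adjusted p = 0.364), 0.63 in VSG against Ctl, and 0.57 in Sham against the mean of the others (adjusted p = 0.641). Arid1a, the large DNA-binding subunit of SWI/SNF, was at 3.19 and 3.56 FPKM in Ctl and 0.663 and 2.49 in Sham, and in VSG it was listed at 0 in mouse 1 and at 0.752 in mouse 2. Both chow mice were above all 4 others. The log2 change was -1.72 (SE 0.48) in VSG against Ctl (unadjusted p under 0.05, limma adjusted p = 0.404), a size that rests in part on the listed 0. It was -2.29 with a pseudocount of 0.5 and -3.57 with 0.1. Without VSG mouse 1 it was -1.32, and the unadjusted p was then above 0.05, as it was without either Ctl mouse. Smarca4, the BRG1 ATPase, was at 5.03 and 4.56 FPKM in Ctl, 3.36 and 5.45 in Sham, and 4.85 and 6.81 in VSG, with all groups overlapping. Chd4, the NuRD ATPase, was at 2.43 and 6.10 in Ctl, 0 and 5.88 in Sham, and 1.94 and 0 in VSG. A 0 for a gene this widely used can be a failed estimate, and its interval was the widest of the 28, at 2.79 either side.

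Setd2, which trimethylates H3K36 along transcribed genes, was lowest after gastrectomy. It was at 2.90 and 4.91 FPKM in Ctl, 2.47 and 3.001 in Sham, and 1.24 and 1.04 in VSG. Both VSG mice were below all 4 others. The log2 change was -1.17 in VSG against Ctl (limma adjusted p = 0.382) and -0.80 (SE 0.29) in VSG against Sham (limma adjusted p = 0.944). Both had an unadjusted p under 0.05. Of 8 Kupffer cell markers, 7 had a positive log2 change in VSG against Ctl (median 1.40) and 5 in VSG against Sham (0.87), with 0 called. Their sum was 37.4 FPKM in VSG mouse 1 and 148 in mouse 2. That of 8 immediate early genes was 114 and 71.7 in Ctl, 80.9 and 99.4 in Sham, and 321 and 57.5 in VSG. The 2 VSG mice thus held the highest and the lowest sum. The part of either list in the level of Setd2 was not tested. Cxxc1, the CpG-binding subunit of the Set1 H3K4 methyltransferase complexes, was at 5.63 and 9.51 in Ctl, 10.4 and 11.7 in Sham, and 7.98 and 10.4 in VSG, with Sham above Ctl but overlapping VSG.

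**Figure D3:**
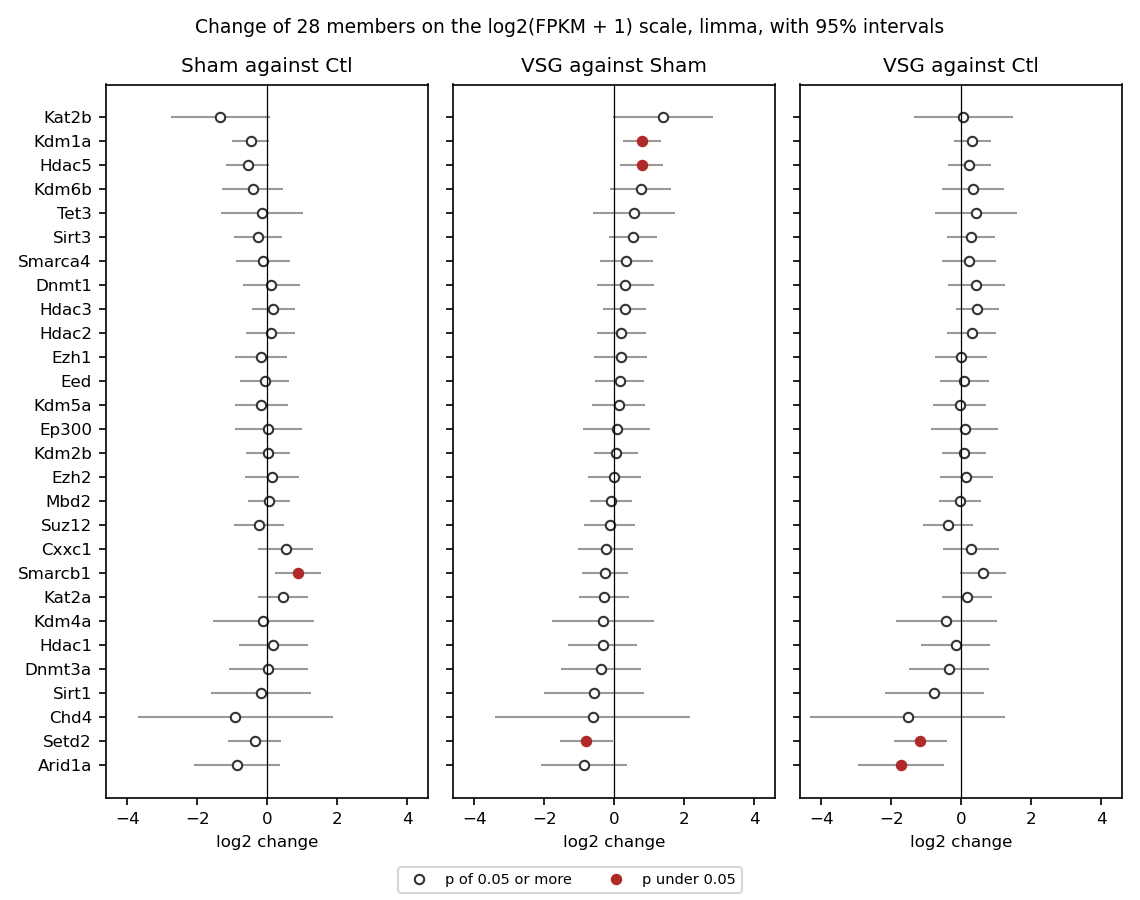
Log2 change of the 28 tested regulators on the log2(FPKM + 1) scale in 3 comparisons, with 95% intervals from limma; filled red points have an unadjusted p under 0.05. Most intervals cover 0, those of Kdm1a and Hdac5 lie above 0 in VSG against Sham, and those of Setd2 and Arid1a below 0 in VSG against Ctl.

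The genes of DNA methylation were low, apart from Mbd2. Mbd2, which binds methylated CpG and recruits NuRD, was at 16.7 and 17.6 FPKM in Ctl, 20.1 and 15.7 in Sham, and 18.8 and 14.8 in VSG, with all groups overlapping and a log2 change of 0.05 in Sham against Ctl. Dnmt1, the maintenance methyltransferase, was at 0.608 and 1.32 in Ctl, 0.826 and 1.39 in Sham, and 1.91 and 1.33 in VSG. Dnmt3a, a de novo methyltransferase, was at 1.70 and 1.86 in Ctl, 1.498 and 2.21 in Sham, and 0.462 and 2.26 in VSG. For both enzymes the spread within a group was as large as any difference between groups, except that both VSG values of Dnmt1 were just above those of Ctl. Dnmt3b, the other de novo enzyme, was at most 0.462 in any mouse, that of Sham mouse 1, with 0.188 and 0.174 in Ctl, 0.114 in Sham mouse 2, and 0.185 and 0 in VSG.

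Tet2 and Uhrf1 were both under the filter and yet higher in both Sham mice than in the other 4. Tet2, which oxidises 5-methylcytosine and is well known in blood cells, was at 0.178 and 0.211 FPKM in Ctl, 0.802 and 0.835 in Sham, and 0.106 and 0.379 in VSG. Uhrf1, which brings Dnmt1 to newly replicated DNA, was at 0.0110 and 0.0529 in Ctl, 0.291 and 0.320 in Sham, and 0.149 and 0.138 in VSG. With no filter on FPKM, Uhrf1 was called in Sham against Ctl (log2 change 0.34, limma adjusted p = 0.0932) and Tet2 was not (0.61, adjusted p = 0.285). Over all genes 64 of 17460 were called there. In that fit VSG against Sham gave -0.19 for Uhrf1 (adjusted p = 0.493) and -0.56 for Tet2 (adjusted p = 0.650). These 2 were singled out after their values were seen, and the Uhrf1 value was carried by a different transcript in each Sham mouse. The share of genes under the filter that were higher in both Sham mice was not counted. Among genes tested it was 5.58%. The summed level of 7 neutrophil markers had a like order, at 12.4 and 4.91 in Ctl, 41.6 and 45.3 in Sham, and 21.8 and 16.4 in VSG, nearly all from S100a8 and S100a9, with Ly6g listed at 0 in every mouse. The summed level of 10 S phase genes, mostly Pcna, stayed between 26.4 and 36.9. The median log2(FPKM + 1) of the 7 tested was 0.85 and 0.96 in Ctl, 1.54 and 1.46 in Sham, and 1.73 and 1.20 in VSG, with 2 of the 7 higher and 1 lower in Sham against Ctl at an unadjusted p under 0.05 and 0 called by limma. The part of either list in these levels was not tested. Of the other Tet enzymes, Tet3 was at 0.486 and 1.503 in Ctl, 1.43 and 0.246 in Sham, and 1.33 and 1.88 in VSG, without order. Tet1 was listed at 0 in mouse 2 of every group, and in mouse 1 at 0.000650 in Ctl, 0.000963 in Sham and 0.000382 in VSG.

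The remaining deacetylases and sirtuins overlapped between groups for the most part. Hdac1, a catalytic subunit of NuRD, Sin3 and CoREST, was at 8.04 and 6.73 FPKM in Ctl, 11.8 and 5.97 in Sham, and 5.23 and 8.05 in VSG, and the highest and the second lowest value were both from Sham. Its log2 change of 0.18 in Sham against Ctl became -0.26 without Sham mouse 1, and that of -0.33 in VSG against Sham became 0.11. Hdac2, its partner, ran from 7.86 to 12.8, and Hdac3, the enzyme of NCoR and SMRT, from 10.5 to 16.9. Both VSG mice were above both Ctl mice for Hdac2, and for Hdac3 as well. Hdac4 was listed at 0 in 2 mice and was at most 1.26. Sirt3, the mitochondrial deacetylase, was the most abundant of the 35, at 55.6 and 50.7 in Ctl, 54.3 and 35.8 in Sham, and 61.8 and 66.8 in VSG, with both VSG mice above the other 4 but no call (log2 change 0.53 in VSG against Sham). Sirt1, a nuclear NAD+-dependent deacetylase, was at 3.94 and 2.05, then 3.01 and 1.91, then 0.415 and 2.69, with all groups overlapping. Sirt6, another nuclear sirtuin, was at 0.268 to 1.36.

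The other acetyltransferases gave no separation of Sham from both groups. Kat2a, the GCN5 enzyme of SAGA and a paralog of Kat2b, was at 3.31 and 4.91 FPKM in Ctl, 6.63 and 5.31 in Sham, and 5.32 and 4.13 in VSG. Both Sham mice were above Ctl, and one VSG value lay between the Sham values. Its log2 change in Sham against Ctl was 0.46, where that of Kat2b was -1.34. Ep300, the coactivator p300, ran from 1.73 to 3.62, and its relative Crebbp was listed at 0 in every mouse but Sham mouse 2, at 0.475.

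In polycomb repressive complex 2 none of the 4 members had an unadjusted p under 0.05. Suz12, a scaffold subunit, was at 6.19 and 6.27 FPKM in Ctl, 5.06 and 5.18 in Sham, and 3.47 and 5.96 in VSG, below Ctl in all 4 high-fat mice and lowest in VSG mouse 1 (log2 change -0.24 in Sham against Ctl and -0.37 in VSG against Ctl). Ezh1, the catalytic subunit typical of resting cells, was at 2.34 and 2.44, then 2.51 and 1.52, then 2.90 and 1.92. Ezh2, that of dividing cells, was at 0.609 and 1.24, then 1.24 and 0.954, then 0.855 and 1.38. Neither showed an order of groups. Eed, which binds the H3K27me3 mark, ran from 4.91 to 7.91.

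Apart from Kdm1a, no histone demethylase had an unadjusted p under 0.05. Kdm2b, a CpG-binding H3K36 demethylase, was at 2.02 and 1.88 FPKM in Ctl, 1.60 and 2.43 in Sham, and 2.09 and 2.12 in VSG, the VSG mice just above the Ctl mice and within the span of the Sham mice. Kdm4a, which acts on H3K9 and H3K36, was at 4.49 and 4.37, then 2.47 and 6.27, then 5.30 and 1.59, the Ctl mice being nearly equal and the others far apart. Kdm5a, an H3K4 demethylase, ran from 1.14 to 2.06. Kdm6b, an H3K27 demethylase, ran from 0.911 to 3.36, with both VSG mice above both Sham mice (log2 change 0.75).

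A wider set held 103 other chromatin genes in 7 lists. Of the 89 tested, limma called 1 in Sham against Ctl, 0 in VSG against Sham, 1 in VSG against Ctl and 0 in Sham against the mean of the others, and at an unadjusted p under 0.05 the counts were 1 higher and 4 lower, 2 and 2, 2 and 4, and 1 and 5. The shares of all genes in each comparison are those given for the regulators above. The gene called in both was Setd1a, an H3K4 methyltransferase and a catalytic partner of Cxxc1, with 4.65 and 6.50 FPKM in Ctl and listed at 0 in all 4 mice on the high-fat diet (limma adjusted p = 0.0708 and 0.0679). A listed 0 may be a failed estimate, and no size is given for it. In VSG against Sham the smallest p values were those of Atrx, a remodeller of heterochromatin, and Hdac11, a class IV deacetylase. Atrx was at 1.40 and 1.92 in Ctl, 2.33 and 2.71 in Sham, and 0.340 and 0 in VSG (limma adjusted p = 0.499). Hdac11 was at 10.9 and 9.06 in Ctl, 7.31 and 9.46 in Sham, and 18.2 and 27.5 in VSG (log2 change 1.33, limma adjusted p = 0.719), with both VSG mice above all others. In Sham against the mean of the others, the next after Setd1a was Chd8, a CHD family remodeller, at 3.42 and 3.55 in Ctl, 0.450 and 0.981 in Sham, and 1.55 and 1.42 in VSG (limma adjusted p = 0.442). It was lowest in Sham, as Kdm1a, Hdac5 and Kat2b were.

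Open chromatin was found near an annotated start of nearly all of these genes in every group. The lists hold 42204 FAIRE peaks in Ctl, 52881 in Sham and 44539 in VSG, each pooled over the 2 mice of a group, so that they carry no error, and the read depth behind them is unknown. Within 1000 bp of a start site a peak was present for 32 of the 36 genes in Ctl, 32 in Sham and 33 in VSG, against 50.7%, 50.6% and 52.0% of 22232 protein-coding genes. Genes expressed in liver are mostly open, and among genes tested in the RNA the share was 90.0%, 89.6% and 91.0%, with 28 of 28 here. Dnmt3b and Tet1, both close to silent in the RNA, had no peak at any annotated start. Hdac4 had none at its annotated starts either, although its RefSeq promoter, which begins elsewhere, lay under a peak in all 3 lists. Crebbp had a peak in VSG alone, of weak signal (0.160, rank 2.65% of that list). Of the 30 RefSeq promoter windows of 300 bases, 24 lay under a peak in Ctl, 23 in Sham and 24 in VSG, and 6 in no list. Dnmt1, Dnmt3a and Kdm2b had peaks at annotated starts but none at that window, and the window of Sirt1 had none in Sham.

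The signal of F-seq, a smoothed read density, is on another scale in each list, with a median of 0.252 in Ctl, 0.398 in Sham and 0.298 in VSG, so peaks were ranked within their own list, with 100% the strongest. The median rank of the 32 genes with a peak in all 3 lists was 84.9% in Ctl, 83.7% in Sham and 86.4% in VSG, as that of all 10721 such genes was 85.0%, 84.1% and 87.0%. The rank was lowest in Sham for 17 of 32 (53.1%, all genes 47.6%) and highest in Sham for 6 (18.8%, all genes 26.7%). The 32 include Kat2b and Dnmt3a, whose strongest peaks were not at the same place in every list, and Dnmt3a was among the 6.

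The ranks of the genes set apart in the RNA are given in the order Ctl, Sham and VSG, with the strongest peak at any start of the gene taken in each list. Kdm1a ranked at 89.3%, 82.4% and 86.3%, lowest in Sham as its RNA was. Arid1a ranked at 89.4%, 85.1% and 86.2%, lowest in Sham, whereas the mean of its RNA was lowest in VSG. Hdac5 ranked at 99.0%, 96.3% and 98.7%, and Smarcb1 at 94.5%, 84.5% and 89.0%. For Kat2b no comparison of ranks can be made, since its strongest peak lay at chr17:53707026-53707920 in Ctl but near another start in Sham (chr17:53782747-53783130) and VSG (chr17:53782775-53783135), and the peaks of Dnmt3a also lay at different places. Smarcb1 had its lowest RNA and its highest rank in Ctl. Tet2 ranked at 50.0%, 63.6% and 52.3%, highest in Sham as its RNA was, and Uhrf1 at 91.7%, 94.1% and 93.8%. Setd2 ranked at 78.5%, 71.0% and 84.1%, with its lowest RNA and highest rank both in VSG. The widest drop in Sham was that of Chd4, from 52.4% in Ctl to 28.9%, with 54.2% in VSG. Kdm4a had a peak at rank 99.9% in Sham, against 98.9% in Ctl and 95.8% in VSG. The lists differ in length and are pooled, so none of these shifts has an error, and none was tested. The median shift over all genes was -0.70 percentage points in Sham against Ctl and 2.30 in VSG against Sham.

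**Figure D4:**
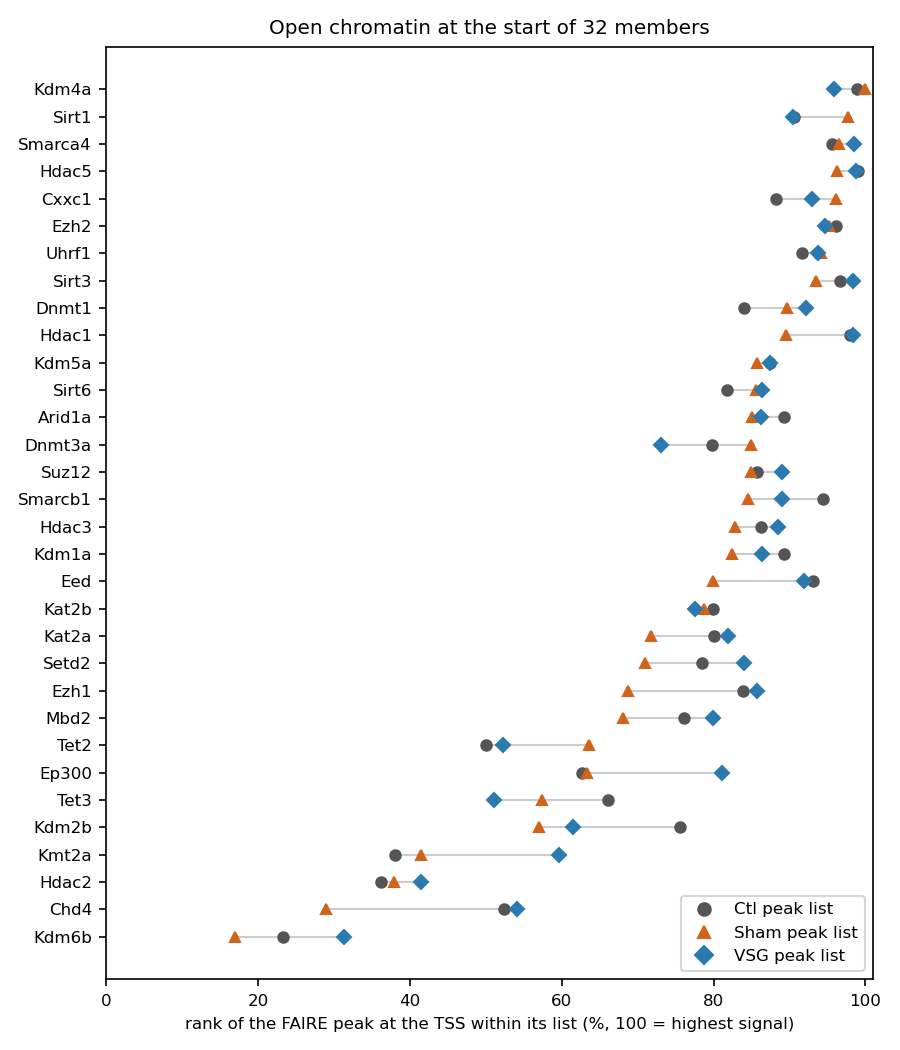
Rank of the FAIRE peak at the start site within its own list (horizontal axis, %, 100 for the strongest) for the 32 regulators with a peak in all 3 lists; circles are Ctl, triangles Sham and diamonds VSG, each pooled over 2 mice, and for Kat2b and Dnmt3a the points are peaks at different starts. Most genes rank high in all lists, Kdm6b, Chd4 and Hdac2 rank low, and Tet2 ranks higher in Sham than in the other lists.

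One member lay at a site that the authors listed as variable. Their lists hold 99 sites more open in Sham than in VSG, 414 more open in VSG, and, among sites that return after gastrectomy, 175 lower and 61 higher in Sham. Hdac1 was the nearest gene to a site in the VSG-higher list and in the list of returning sites lower in Sham, 1 of 36 genes (2.78%), against 1.57% and 0.634% of all genes, and 0 of 36 were nearest to a site of the other 2 lists. The site, mm9 chr4:129219555-129220353, covers the start of Hdac1, which lies on the minus strand at chr4:129193348-129219957. The peak there had a rank of 98.0% in Ctl, 89.6% in Sham and 98.3% in VSG. The RNA of Hdac1 had no such order, since its FPKM overlapped across all groups. Hdac5 had a site of the same 2 lists at 64937 bp from its start, for which another gene was nearer.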

How the data were processed

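FPKM values per RefSeq transcript and mouse were made by the authors with TopHat2 and Cufflinks on mm9 and deposited without read counts (the labels give poly(A) selection, the study's methods ribosomal depletion). FAIRE peaks, with their F-seq signal, were deposited by the authors as 1 list a group after IDR over 2 mice. The authors' lists of variable sites hold positions only. Their DESeq2 tables, which hold fold changes and p-values, were not used.

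RefSeq IDs were paired with symbols by an NCBI gene table (GRCm38.p6, names only): 34046 of 34933 transcripts matched. FPKM was summed per gene, kept at 1 or more in at least 2 mice, and fitted as log2(FPKM + 1), pseudocount 1, with limma 3.58.1 (R 4.3.3, trend, all 3 groups in 1 fit), with Benjamini-Hochberg adjustment and an FDR of 10%. The script was tested on simulated data. P-values rest on the spread between 2 mice a group. Peaks were overlapped by at least 1 bp with 1000 bp either side of protein-coding starts of GENCODE vM1 (mm9), and sites were given to the nearest start within 100 kb. Mice sharing a replicate number were not treated as paired across groups in the main fit.

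Members and lists were chosen with earlier results of these data known. Every mouse's value is printed for DNA methylation genes, those with p under 0.05, the 3 highest and 3 lowest, those with partial peaks or a variable site, and the extremes of each role in Sham against Ctl and in VSG against Sham. Alternatives changed the filter, pseudocount, scaling, variance trend, transcript summing, samples in the fit, the window, overlap, peak number and distance.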

Additional observations from a re-analysis of the deposited data

How the results depend on the processing

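Over 38 results and their alternatives, 512 of 539 recomputed values stayed on the same side of the threshold and in the same direction where tested, within 1.5 times for a count, or within the spread between mice (0.22) for a median. Among these, medians near 0 changed sign. VSG against Ctl, 0.10, became -0.03 with size factors, -0.01 with quantile normalization and -0.04 without Ctl mouse 1. VSG against Sham, 0.06, became -0.01 with size factors and -0.0025 with quantile normalization. Sham against Ctl, -0.12, became 0.000225 with no filter, and Sham against the mean of the others, -0.05, became 0.01 without Sham mouse 1. The medians were themselves smaller than the spread of 0.22. For single genes the tally says little of stability, since none was called in the main fit. An uncalled change that kept its sign counted as the same at any size. Hdac5 in VSG against Sham went from 0.79 to 0.31 with the highest transcript. Arid1a in VSG against Ctl went from -1.72 to -3.57 with a pseudocount of 0.1. No member was called in VSG against Sham or in VSG against Ctl under any of the 17 alternatives. In Sham against Ctl 1 was called with no filter on FPKM (Uhrf1) and 0 to 1 when a mouse was left out, the 1 being Kat2b without Sham mouse 2, and 0 to 1 in Sham against the mean of the others, again Kat2b. Its log2 change there was -2.17, and -2.14 in Sham against Ctl. Over all genes Sham against Ctl had 28 calls of 9869, 64 of 17460 with no filter, 157 without Sham mouse 2 and 0 without either Ctl mouse. Hdac1 reversed without Sham mouse 1, to 0.11 in VSG against Sham and -0.26 in Sham against Ctl, against -0.77 and 0.61 without Sham mouse 2. The cause was not tested.

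Members at an unadjusted p under 0.05 in Sham against Ctl, 1 in the report, were 3 with no filter, 4 at FPKM of 1 or more in all 6 mice (20 members tested), and 2 with the highest transcript or with transcripts above 0 in all mice. Leaving out a mouse gave 0 (each Ctl mouse) to 3 (Sham mouse 2), where all genes, 1076 in the report, gave 594 and 536 without a Ctl mouse and 1814 without Sham mouse 2. In VSG against Sham, 3 in the report, they were 4 with no filter, with the stricter filter or with the highest transcript, and 1 (without VSG mouse 1) to 3 when a mouse was left out. In VSG against Ctl, 2 in the report, they were 1 under the stricter filter, 1 with transcripts above 0 in all mice, and 0 (without Ctl mouse 2) to 6 (without VSG mouse 2). In Sham against the mean of the others, 4 in the report, they were 6 with no filter, 2 with transcripts above 0 in all mice, and 0 (without Ctl mouse 1) to 3. Where a group is left with 1 mouse, that mouse is assumed to vary like the others.

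Among all genes at p under 0.05, VSG against Ctl had 693 higher and 250 lower, and 447 and 378 with size factors or 490 and 372 with quantile normalization. VSG against Sham had 321 and 158, and 241 and 208 or 246 and 233. With the replicate block the counts of members at p under 0.05 were 1, 3, 2 and 3 in the order of the report, and no member was called. The differences of mouse 2 from mouse 1 correlated between groups at 0.12, 0.06 and 0.04 over the genes tested. Whether same-numbered mice share a batch was not tested. The block left 9, 0, 10 and 0 genes called of 28, 5, 28 and 14. With FPKM of 1 or more in all 6 mice, 0 of 6804 genes were called in each of these comparisons. With transcripts above 0 in all mice, the calls were 5, 0, 2 and 0 of 7815. Leaving out 1 mouse moved the calls over all genes up or down in every comparison. Sham against the mean of the others needs all groups, and Arid1a could not be fitted under 2 settings. With 2 mice a group and no read counts, the half-width of the 95% intervals on the log2 scale ran from 0.54 to 2.79 between groups and from 0.47 to 2.41 for Sham against the mean of the others.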
